A study of Mus musculus with 90 samples.

Results

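The 10 genes described here encode proteins that coat lipid droplets in the liver or control the breakdown of the triglyceride inside them: Plin2, Plin4, Plin5, Cideb, Cidec, G0s2, Pnpla2, Abhd5, Hilpda and Fitm1. They were chosen by name, and all 10 were found among the 27654 gene identifiers in the count tables, of which 27244 carried a symbol. Hepatocytes keep triglyceride in droplets whose surface is a phospholipid monolayer covered by proteins. The perilipins Plin2, Plin4 and Plin5 coat this surface and control the access of lipases, the CIDE proteins Cideb and Cidec act in droplet fusion and in the lipidation of lipoproteins, and Fitm1 takes part in droplet formation at the endoplasmic reticulum. Pnpla2 encodes adipose triglyceride lipase (ATGL), which starts triglyceride breakdown, Abhd5 (CGI-58) activates this lipase, and G0s2 and Hilpda inhibit it.

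Gene expression was measured by bulk RNA-seq in 90 liver libraries from C57BL/6J mice fed chow. In a time series, mice homozygous for floxed glucocorticoid receptor alleles (GRfl/fl, here WT) and mutants that also carried Alb-Cre (GRfl/fl x Alb-Cre, here GRLKO) were sampled every 4 h at 6 time points from ZT0 (6 a.m.) to ZT20, on caloric restriction or on a control diet of night-restricted feeding. A further experiment at ZT12 compared WT mice on caloric restriction with controls, and another compared WT mice supplemented with corticosterone with night-fed controls. These comparisons ask how diet, the hormone and its hepatocyte receptor bear on liver transcripts across the day. On caloric restriction each genotype had 3 livers at each time point, 18 WT and 18 GRLKO in all. The control diet had 3 or 4 livers per group, 22 WT and 20 GRLKO in all, and each group of the ZT12 experiments had 3 livers. The mice of the ZT12 experiments were labelled WT with no mention of floxed alleles, and the controls of the diet experiment carry AL in their titles although their treatment label is night-restricted feeding. Alb-Cre acts in hepatocytes, so the other liver cells of GRLKO mice keep their receptor gene. In the time series each diet was deposited as a table of its own, so diet and library set cannot be told apart there, and genotypes were compared within a diet. Total estimated counts per library had a lowest, median and highest value of 14235473, 17386700.5 and 20788575 on caloric restriction and of 10057544, 13427104 and 17089004 on the control diet. The same values were 36442195, 37407547 and 39492146 in the diet experiment and 13739631, 14431388.5 and 16077943 in the corticosterone experiment.

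Levels are given as CPM (counts scaled to a common library size, TMM), and differences as log2 fold changes ± standard error (SE) from edgeR's quasi-likelihood fit. A gene was called where its p, adjusted by Benjamini-Hochberg over all genes tested and written edgeR adjusted p, was under 0.05. These p-values measure the spread between livers. Nr3c1, the targeted gene, stood at a lowest, median and highest level of 70.5, 93.6 and 112 CPM in WT and 21.5, 24.9 and 31.9 CPM in GRLKO on caloric restriction. The same values on the control diet were 71.9, 86.9 and 119 CPM in WT and 16.2, 21.5 and 29.2 CPM in GRLKO. Every GRLKO library lay below every WT library, and averaged over the 6 time points Nr3c1 fell by 1.84 ± 0.04 on the log2 scale on caloric restriction (edgeR adjusted p = 1.01e-24) and by 1.96 ± 0.05 on the control diet (edgeR adjusted p = 5.13e-26). In the diet experiment Nr3c1 stood at 88.7, 90.3 and 95.7 CPM in controls and 84.3, 88.4 and 86.6 CPM on caloric restriction, and in the corticosterone experiment at 74.1, 77.4 and 69.4 CPM in controls and 61.7, 83.8 and 65.9 CPM with the hormone. Neither difference was called (edgeR adjusted p = 0.317 and 0.808). In bulk tissue, fewer cells of a type and less RNA per cell cannot be told apart.

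All 7 hepatocyte markers examined were detected in all 90 libraries, with Alb the most abundant at a median of 74550 CPM. A few libraries stood apart by markers of other tissues. GRLKO replicate 1 at ZT12 on caloric restriction held skeletal muscle markers summing to 232.6 CPM, against 0.224 and 0 CPM in the other 2 GRLKO livers of that group. WT replicate 3 of the same time point and diet held exocrine pancreas markers summing to 554 CPM (0.140 and 0.560 CPM in its group), and WT replicate 2 at ZT16 on the control diet held 269 CPM of them. GRLKO replicate 2 at ZT0 on caloric restriction held erythrocyte markers at 3582 CPM and adipocyte markers at 22.5 CPM. GRLKO replicate 3 at ZT12 on the control diet stood apart by Plin2, Cideb, Cidec and Fitm1 themselves, and was singled out from those values. Other libraries with raised markers were kept, among them WT replicate 2 at ZT8 on caloric restriction, with Kupffer cell markers summing to 284 CPM (119 and 169 CPM in its group), GRLKO replicate 1 at ZT20 on that diet, with Kupffer and stellate cell markers at 253 and 474 CPM (at most 87.2 and 283 CPM in its group), and GRLKO replicate 2 at ZT20 on the control diet, with adipocyte markers at 54.1 CPM. Results averaged over the day, interactions, rhythms and the ZT12 comparison on caloric restriction were also computed without the libraries named before these, an alternative chosen after seeing the data, and a changed call of a member is given with its result.

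Per kilobase of exon, Cideb had the highest level of the 10 genes in WT liver at ZT12 on the control diet, at 142 ± 9.37 CPM per kb (SD, n = 4), apart from all others. Plin2 followed at 55.7 ± 11.8 CPM per kb, then G0s2 at 36.8 ± 39.5, Pnpla2 at 34.1 ± 7.19, Fitm1 at 32.8 ± 13.8 and Plin5 at 24.7 ± 4.43 CPM per kb. Neighbours among these 5 did not differ beyond their spread. The place of G0s2 rested on WT replicate 1, at 83.3 CPM where the other livers stood at 9.99 to 18.5 CPM. Which genes are neighbours thus depends on that liver. Abhd5 lay lower at 4.88 ± 0.363 CPM per kb. Cidec (1.53 ± 0.851), Plin4 (1.23 ± 1.24) and Hilpda (0.968 ± 0.167 CPM per kb) closed the order and did not differ from each other beyond their spread. Plin4 was at 0 in 39 of the 90 libraries and never above 18.0 CPM, and the other 9 genes were detected in every library.

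The diet experiment asked what caloric restriction does at ZT12 in WT liver. Plin5, the perilipin that ties droplets to mitochondria, rose, and so did the lipase gene Pnpla2, while Cideb, Cidec, the ATGL inhibitor G0s2 and Fitm1 fell. In all, 6 of 10 members were called, 2 higher and 4 lower, where 47.1% of the genes tested were called. The median log2 fold change was -0.29 over the 10 members and 0.00 over all genes tested.

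Plin5 stood at 36.4, 35.0 and 49.0 CPM in the 3 controls and at 116, 144 and 158 CPM in the 3 livers on caloric restriction. Its groups were far apart, with a 3.47-fold rise (edgeR adjusted p = 0.000369). Pnpla2 stood at 103, 100.1 and 86.5 CPM in controls and 126, 127 and 123 CPM on caloric restriction. The restricted livers were all higher and lay close together, and the log2 fold change was 0.38 ± 0.08 (edgeR adjusted p = 0.00848). Fitm1 stood at 14.7, 22.8 and 15.4 CPM in controls and 3.01, 5.14 and 2.40 CPM on caloric restriction. It had the lowest log2 fold change among the members called, -2.32 ± 0.30 (edgeR adjusted p = 0.00114), and no restricted liver reached a control. For G0s2 the controls stood at 111, 77.1 and 145 CPM and the restricted livers at 37.2, 21.8 and 60.5 CPM. The groups did not overlap, but both were widely spread (log2 fold change -1.48 ± 0.37, edgeR adjusted p = 0.0155). Cidec stood at 5.66, 9.21 and 4.32 CPM in controls and 1.87, 1.69 and 2.21 CPM on caloric restriction, -1.73 ± 0.29 on the log2 scale (edgeR adjusted p = 0.00312). Cideb stood at 234, 246 and 236 CPM in controls and 185, 186 and 177 CPM on caloric restriction, -0.39 ± 0.07 on the log2 scale (edgeR adjusted p = 0.00309). Neither CIDE gene overlapped between the groups.

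These 6 calls held when any 1 of the 6 livers was left out. Plin2, the main perilipin of hepatocytes, stood at 359, 426 and 319.6 CPM in controls and 226, 222 and 362 CPM on caloric restriction. Caloric restriction replicate 3 lay among the controls, and the log2 fold change of -0.45 ± 0.21 was not called (edgeR adjusted p = 0.113). Without that liver it was -0.71 and called (edgeR adjusted p = 0.00843), as was that of Abhd5, at -0.33 (edgeR adjusted p = 0.0451), against -0.20 ± 0.12 with all livers. Hilpda ranged over 1.92 to 2.79 CPM in the 6 livers, with overlapping groups. Plin4 stood at 2.18, 3.77 and 1.08 CPM in controls and 12.8, 0 and 0 CPM on caloric restriction. Its log2 fold change of 0.86 ± 1.57 (edgeR adjusted p = 0.684) rested on caloric restriction replicate 1. Without it both remaining restricted livers were at 0, the sign was reversed and the difference was called (edgeR adjusted p = 0.0032). The WT ZT12 livers of the time series gave the same 2 calls for Plin5 and Fitm1 when compared between diets, and none for Cideb, Cidec, G0s2 and Pnpla2 (edgeR adjusted p = 0.142 to 0.843). Diet and library set cannot be told apart in that comparison, and its mice carried floxed alleles. It therefore cannot decide whether the 6 calls hold in other livers.

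Markers of other cells also moved in the diet experiment. Of the 5 endothelial markers 4 rose, with summed levels of 105, 134 and 136 CPM in controls and 177, 177 and 204 CPM on caloric restriction, Kdr or Clec4g being the most abundant. Of the 7 hepatocyte markers 5 rose, with sums of 81640.0, 82550.0 and 87190.0 CPM in controls and 156900.0, 158600.0 and 164600.0 CPM on caloric restriction. Stellate cell markers rose in 2 of 6 (Dcn the most abundant, sums 218, 223 and 182 and 301, 268 and 307 CPM) and cholangiocyte markers in 2 of 3 tested (Sox9 or Krt7 the most abundant, sums 4.03, 4.03 and 4.77 and 8.14, 7.71 and 10.1 CPM). Of 7 adipocyte markers, Fabp4 alone passed the count filter and rose (sums 3.83, 5.97 and 3.35 and 9.30, 8.60 and 9.31 CPM), while the droplet coat gene of fat cells, Plin1, was at 0 in all 90 libraries. Cd5l among 6 Kupffer cell markers, Cd79a among lymphocyte markers and Alas2 among erythrocyte markers fell. Their part in the changes of the members was not tested.

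Corticosterone supplementation was compared with night-fed controls at ZT12 to see the effect of the hormone without restriction. Plin5 and Pnpla2 rose over these controls, as both had with caloric restriction over theirs, and G0s2 and Plin2 fell. Of 9 members tested, 4 were called, 2 in each direction, where 8.11% of the genes tested were called. The median log2 fold change was -0.46 over these 9 and -0.01 over all genes tested.

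Plin5 stood at 46.0, 47.6 and 54.6 CPM in controls and 119, 133 and 130.3 CPM with corticosterone. The 3 treated livers lay close together and far above the controls, a log2 fold change of 1.37 ± 0.10 (edgeR adjusted p = 0.00121). Pnpla2 stood at 47.0, 39.2 and 37.3 CPM in controls and 85.6, 115 and 83.7 CPM with corticosterone. Again the groups did not overlap (1.20 ± 0.15 on the log2 scale, edgeR adjusted p = 0.00717). These controls were low for ZT12, at a mean of 41.2 CPM. WT means were 96.5 CPM in controls of the diet experiment and 103 CPM on the control diet of the time series. The treated mean of 94.7 CPM lay near those levels. They come from other library sets, and the cause of the low controls was not tested. G0s2 stood at 156, 39.5 and 95.8 CPM in controls and 4.01, 4.91 and 14.7 CPM with corticosterone. Every treated liver was below every control, and the log2 fold change of -3.61 ± 0.65 was the lowest of the members called (edgeR adjusted p = 0.02). Its call was lost without control replicate 1, control replicate 3 or corticosterone replicate 1 (edgeR adjusted p = 0.0557 to 0.0649). Plin2 stood at 234, 234 and 290.0 CPM in controls and 105, 129 and 182 CPM with corticosterone. These groups did not overlap either (-0.86 ± 0.20 on the log2 scale, edgeR adjusted p = 0.047), but the call held only without corticosterone replicate 3 and was lost without any other of the 6 livers (edgeR adjusted p = 0.0876 to 0.131). The calls of Plin5 and Pnpla2 held without any 1 liver.

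Fitm1 stood at 36.5, 33.9 and 19.4 CPM in controls and 18.2, 13.5 and 18.7 CPM with corticosterone. The treated livers were all lower, but the difference was not called (-0.83 ± 0.25 on the log2 scale, edgeR adjusted p = 0.0871). Without control replicate 3 it was (-1.07, edgeR adjusted p = 0.0278), and DESeq2 also called it (adjusted p = 0.0232). Cideb, Cidec, Abhd5 and Hilpda overlapped between the groups. Plin4 was at 0 in all 3 treated livers and at 0, 8.02 and 3.64 CPM in the controls, at least 19.1-fold lower with corticosterone against a floor of 3 counts per library. That bound leaned on the control at 8.02 CPM and would be lower without it. Plin4 was too low to be tested, and its groups overlapped at 0. Kupffer cell markers rose in 2 of 6 (Clec4f the most abundant, sums 61.5, 78.2 and 85.5 CPM in controls and 96.2, 132 and 109 CPM with corticosterone), Kdr fell among 5 endothelial markers (Clec4g or Kdr the most abundant, sums 81.8, 87.7 and 107 and 67.2, 73.2 and 81.4 CPM), and Sox9 fell among 3 cholangiocyte markers tested (Sox9 or Krt19 the most abundant, sums 9.47, 8.08 and 11.1 and 4.77, 19.0 and 4.22 CPM). The stellate cell gene Lrat fell, and the hepatocyte genes Tat and Hnf4a rose. Their part in the result was not tested.

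**Figure D1:**
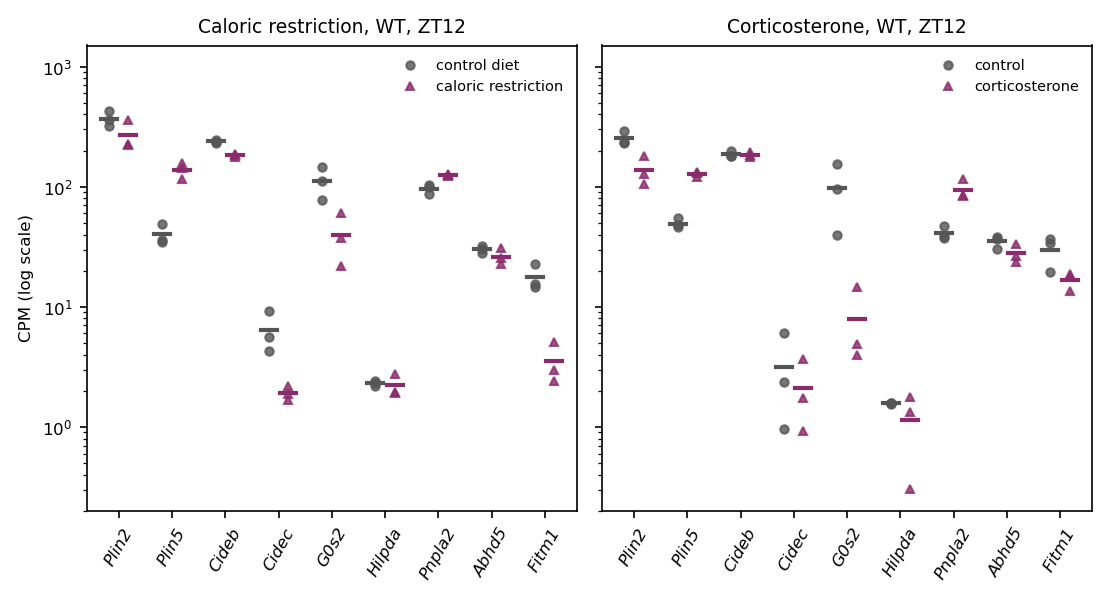
Level of 9 of the 10 genes (CPM, log axis) in each liver of the diet experiment (left) and the corticosterone experiment (right), both WT at ZT12; points are livers and horizontal bars group means. Plin5 sits at 116 to 158 CPM on caloric restriction and 119 to 133 CPM with corticosterone, above every control in either experiment, and G0s2 sits below its controls in both.

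The time series asked how these genes depend on the hepatocyte receptor through the day. On average over the day, GRLKO livers had more Plin2, Cidec, G0s2 and Fitm1 transcript on either diet, slightly less Abhd5, and on caloric restriction less Plin5. At ZT20, however, the mean of G0s2 was lower in GRLKO on both diets. On the control diet its day average lost its call without the livers numbered 2 or those numbered 3. Averaged over the 6 time points, 6 of 10 members were called on caloric restriction (4 higher, 2 lower), where 32.9% of the genes tested were called, and 5 of 10 on the control diet (4 higher, 1 lower), where 18.6% were. The median log2 fold change over the members was 0.30 on caloric restriction and 0.28 on the control diet, against 0.00 over all genes tested on each diet. On caloric restriction the members called were 1 of 10 at ZT0 (0.502% of the genes tested), 3 at ZT4 (0.690%), 5 at ZT8 (2.55%), 5 at ZT12 (15.3%), 3 at ZT16 (4.54%) and 2 at ZT20 (1.47%). The control diet had 1 of 9 tested at ZT0 (0.536% of the genes tested), 1 of 9 at ZT4 (0.195%), 2 of 9 at ZT8 (1.43%), 1 of 10 at ZT12 (2.08%), 1 of 9 at ZT16 (1.98%) and 1 of 9 at ZT20 (0.420%). At the single time points, each with 3 or 4 livers per group, most calls were lost without 1 liver or another, as given with each gene.

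**Figure D2:**
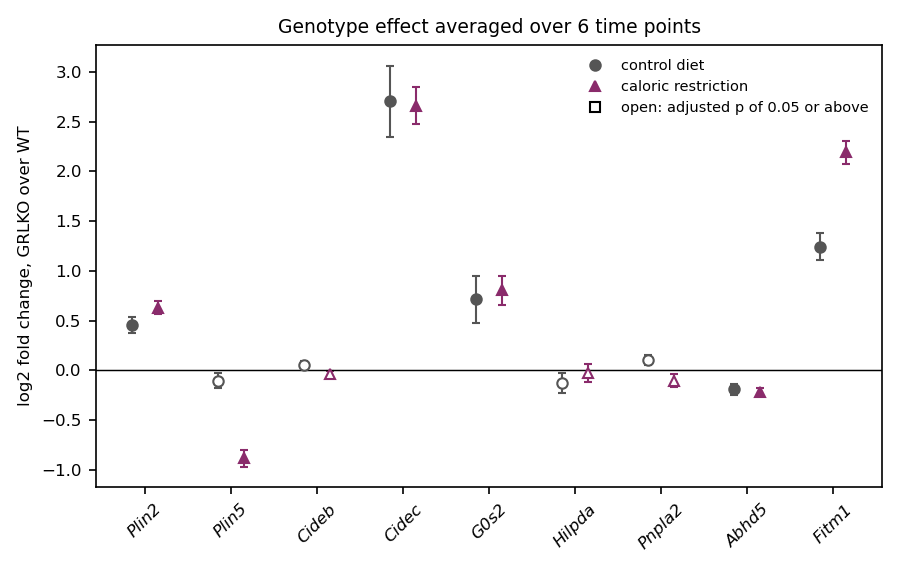
Log2 fold change of GRLKO over WT averaged over the 6 time points (± SE) for the 10 genes except Plin4, on each diet. Open symbols have an edgeR adjusted p of 0.05 or more. Cidec stands at 2.66 and 2.71, Fitm1 at 2.19 on caloric restriction and 1.24 on the control diet, and Plin5 below 0 on caloric restriction.

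Plin5 was called at ZT12 on both diets. On caloric restriction its ZT12 level was 128, 94.8 and 135 CPM in WT and 19.7, 17.4 and 27.7 CPM in GRLKO. The highest GRLKO liver was far below the lowest WT liver, a log2 fold change of -2.47 ± 0.21 (edgeR adjusted p = 0.000798). Its ZT12 level on the control diet was 45.7, 61.7, 57.0 and 42.1 CPM in WT and 25.9, 30.6, 19.4 and 22.4 CPM in GRLKO. All 4 GRLKO livers were again below the 4 WT livers (-1.07 ± 0.16 on the log2 scale, edgeR adjusted p = 0.0121). Both calls held without any 1 liver, and the first was -2.31 (edgeR adjusted p = 0.0184) without the 2 livers with muscle or pancreas markers. At ZT8 on caloric restriction Plin5 stood at 22.1, 42.4 and 28.0 CPM in WT and 9.71, 13.9 and 12.7 CPM in GRLKO. GRLKO livers were lower without overlap (-1.35 ± 0.25, edgeR adjusted p = 0.0395), a call lost without WT replicate 3 or any 1 of the 3 GRLKO livers (edgeR adjusted p = 0.0844 to 0.154). At ZT16 on caloric restriction the levels were 118, 97.9 and 98.8 CPM in WT and 87.9, 104 and 63.5 CPM in GRLKO. Those groups overlapped, so the wide gap of ZT12 was not seen 4 h later. At ZT0 on the control diet the order was the other way, with 48.6, 44.3 and 36.0 CPM in WT and 74.8, 74.8 and 63.6 CPM in GRLKO. No liver overlapped there, yet the difference was not called (0.72 ± 0.12 on the log2 scale, edgeR adjusted p = 0.072; 0.0262 with all livers of the diet in 1 fit, and DESeq2 adjusted p = 0.000322). Where edgeR made no call with each time point fitted alone, DESeq2 called Plin5 lower in GRLKO at ZT4 and ZT20 on caloric restriction (adjusted p = 0.0365 and 0.0109) and at ZT16 on the control diet (0.0398), and edgeR with all livers of the diet in 1 fit called that at ZT20 (0.0478).

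The difference between the diets in the effect of genotype on Plin5 was tested directly. At ZT12, 1 of 10 members was called in this interaction, Plin5, where 1.01% of the genes tested were called. Its genotype effect on caloric restriction minus that on the control diet was -1.39 ± 0.28 on the log2 scale (edgeR adjusted p = 0.0359). That call was lost without WT replicate 1, 3 or 4 or GRLKO replicate 1, 2 or 4 of the control diet, or WT replicate 1 or 3 or GRLKO replicate 1 or 2 of caloric restriction (edgeR adjusted p = 0.0502 to 0.0933), and without the 3 livers at ZT12 that stood apart (-1.32 on the log2 scale, edgeR adjusted p = 0.118). It was also lost with the replicate number as a block (-1.40 on the log2 scale, edgeR adjusted p = 0.0681). Averaged over the day, 2 of 10 members were called in the interaction, where 3.01% of the genes tested were. For Plin5 the day average was -0.88 ± 0.09 on caloric restriction (edgeR adjusted p = 5.69e-09) and -0.11 ± 0.08 on the control diet (edgeR adjusted p = 0.387), a difference of -0.78 ± 0.12 (edgeR adjusted p = 2.17e-05). It was called whichever replicate number was left out. The other called member was Fitm1. Among the cell markers, the erythrocyte gene Alas2 was called higher in the interaction averaged over the day, and its part in these results was not tested.

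Plin2, the abundant perilipin of hepatocytes, was higher in GRLKO by an amount that was small beside that of Cidec or Fitm1 but present on both diets. On caloric restriction its levels were 193, 190.4 and 219 CPM in WT and 424, 351 and 313 CPM in GRLKO at ZT4, 190.4, 148 and 151 CPM in WT and 310.2, 301 and 325 CPM in GRLKO at ZT8 and 192, 164 and 209 CPM in WT and 259.5, 366 and 385 CPM in GRLKO at ZT12. No GRLKO liver overlapped with WT at these 3 times, with log2 fold changes of 0.86 ± 0.13, 0.94 ± 0.11 and 0.84 ± 0.17 (edgeR adjusted p = 0.0411, 0.0101 and 0.0176). At ZT16 it stood at 325, 314 and 327 CPM in WT and 394, 506 and 447 CPM in GRLKO (0.49 ± 0.10 on the log2 scale, edgeR adjusted p = 0.0423). At ZT16 on the control diet it stood at 262, 228, 203 and 239 CPM in WT and 404, 347 and 311 CPM in GRLKO. The groups were apart here too (0.61 ± 0.11, edgeR adjusted p = 0.0392). The call at ZT4 was lost without WT replicate 1 or 2 or any 1 GRLKO liver (edgeR adjusted p = 0.0633 to 0.158), at ZT8 without GRLKO replicate 1 or 3 (0.0583 to 0.0604), at ZT12 without WT replicate 2 or GRLKO replicate 2 or 3 (0.0564 to 0.0608), at ZT16 on caloric restriction without any 1 liver but GRLKO replicate 1 (0.103 to 0.134), and at ZT16 on the control diet without any 1 liver but WT replicate 1 (0.0551 to 0.112). With all livers of the diet in 1 fit, both ZT16 differences were no longer called (edgeR adjusted p = 0.0639 and 0.0831). Averaged over the day Plin2 rose by 0.63 ± 0.07 on caloric restriction (edgeR adjusted p = 2.22e-08) and by 0.46 ± 0.08 on the control diet (edgeR adjusted p = 9.64e-05), and both calls held whichever replicate number was left out. At ZT12 on the control diet Plin2 stood at 234, 169.8, 228 and 151 CPM in WT and 261, 241, 507 and 266 CPM in GRLKO. GRLKO replicate 3 was well above the other 3, no liver overlapped, and the difference was not called (0.71 ± 0.25 on the log2 scale, edgeR adjusted p = 0.264; 0.0212 with all livers of the diet in 1 fit). DESeq2 also called Plin2 higher at ZT0 and ZT8 on the control diet (adjusted p = 0.00267 and 0.00129), where edgeR did not.

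Plin4, the least measurable of the 3 perilipins, had a lowest, median and highest level of 0, 3.88 and 11.5 CPM in WT and 0, 7.50 and 18.0 CPM in GRLKO on caloric restriction, with 4 of 18 and 2 of 18 livers at 0. With the control diet 15 of 22 WT and 12 of 20 GRLKO livers were at 0. The groups overlapped widely over the day on both diets. At ZT12 on caloric restriction Plin4 stood at 3.79, 0 and 0 CPM in WT and 6.80, 10.8 and 15.9 CPM in GRLKO. GRLKO livers were all higher, but the difference was not called (3.18 ± 1.17 on the log2 scale, edgeR adjusted p = 0.112). Without WT replicate 1, the only WT liver there with counts, it was called (edgeR adjusted p = 0.00455), and the remaining WT livers were then all at 0. The day average on caloric restriction was 1.24 ± 0.49 (edgeR adjusted p = 0.0505), called without the livers numbered 2 (0.0238) and without those that stood apart (0.0327). At ZT20 on the control diet Plin4 was at 0 in all 4 WT livers and at 5.09, 0 and 0 CPM in GRLKO, whose mean was at least 7.50-fold higher against a floor of 3 counts per library but rested on 1 liver.

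**Figure D3:**
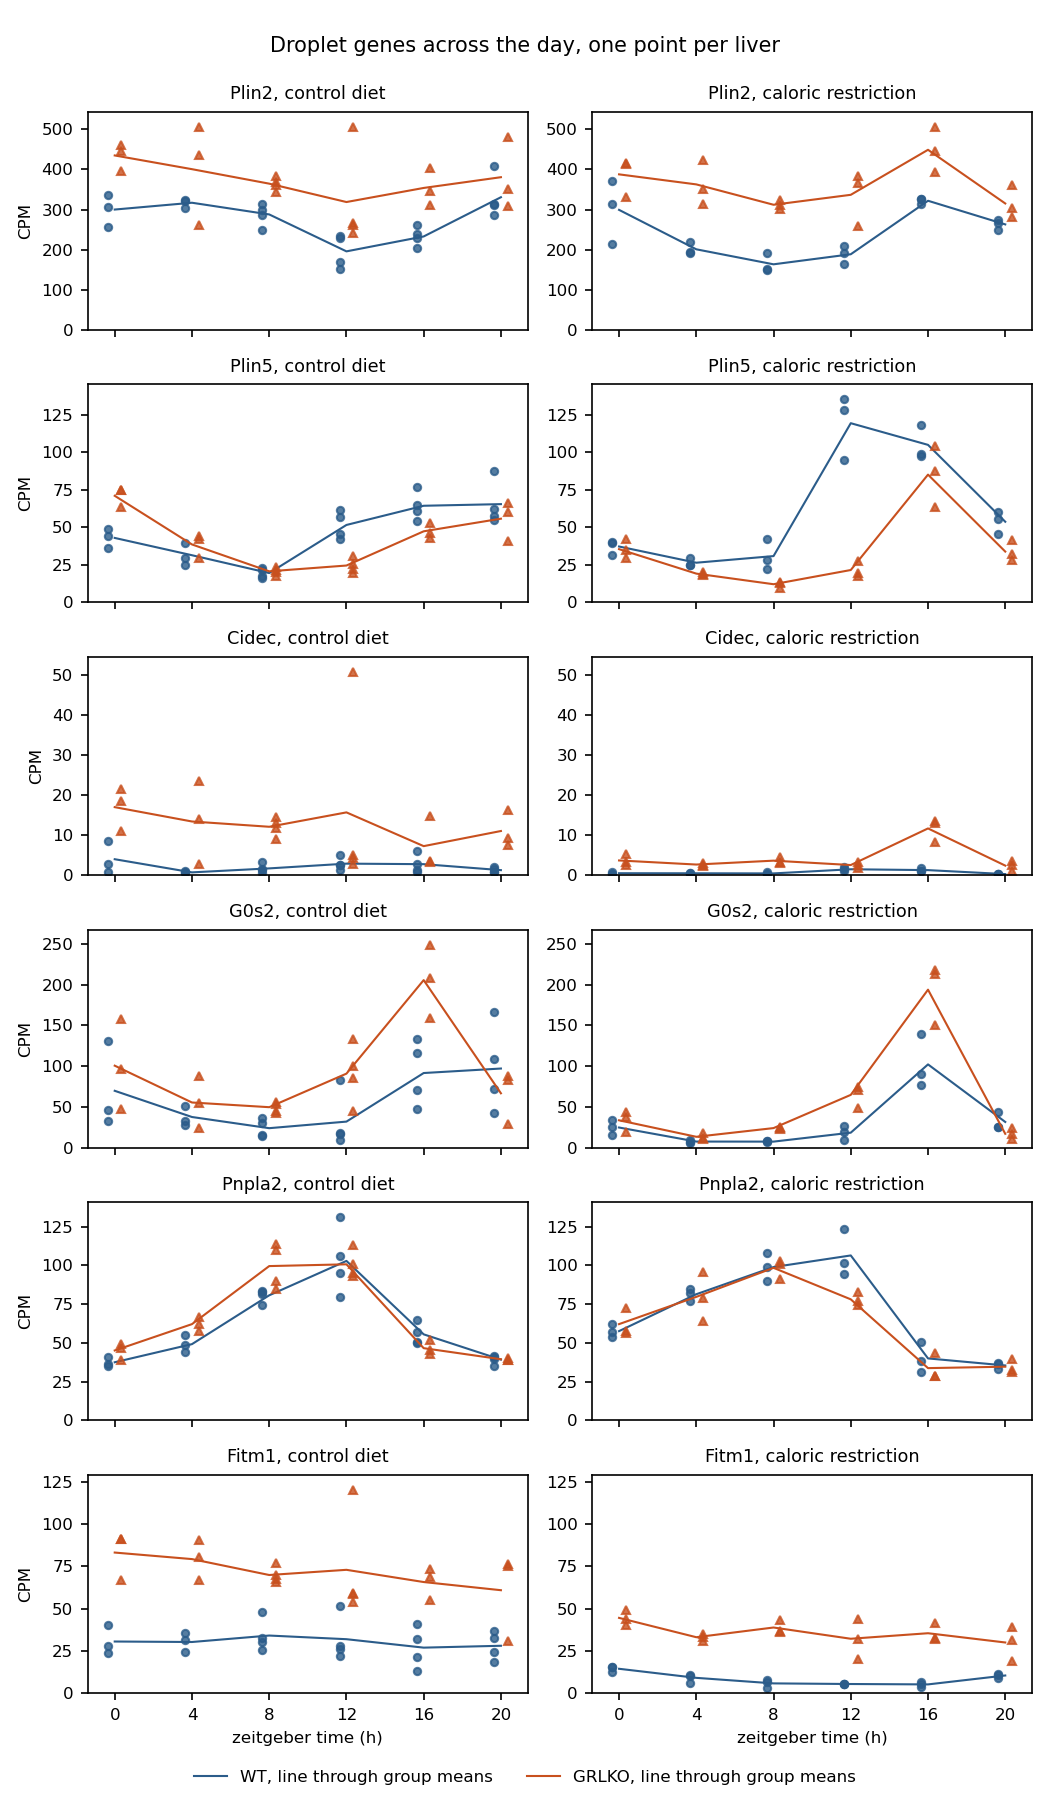
Level (CPM) of Plin2, Plin5, Cidec, G0s2, Pnpla2 and Fitm1 in every liver of the time series against zeitgeber time (h), control diet left and caloric restriction right; points are livers, lines join group means, and WT and GRLKO are drawn apart by colour. Plin5 in WT reaches a group mean of 119.5 CPM at ZT12 on caloric restriction, where GRLKO livers stay at 17.4 to 27.7 CPM, and Fitm1 in GRLKO lies above every WT liver at all 6 times on that diet.

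Cidec, which promotes the growth of large droplets and is best known from fat cells, was the member whose day average rose most in GRLKO. On caloric restriction it had a lowest, median and highest level of 0.173, 0.474 and 1.89 CPM over 18 WT livers and 1.10, 3.17 and 13.6 CPM over 18 GRLKO livers. Corresponding levels on the control diet were 0.405, 1.39 and 8.49 CPM over 22 WT livers and 2.65, 11.4 and 50.6 CPM over 20 GRLKO livers. The day average rose by 2.66 ± 0.18 on caloric restriction (edgeR adjusted p = 7.01e-12) and by 2.71 ± 0.36 on the control diet (edgeR adjusted p = 6.51e-07) on the log2 scale, and both calls held whichever replicate number was left out. At ZT16 on caloric restriction Cidec stood at 1.75, 0.931 and 0.996 CPM in WT and 13.0, 13.6 and 8.34 CPM in GRLKO. GRLKO livers were all far higher (3.23 ± 0.31, edgeR adjusted p = 0.00209), a call that held without any 1 liver. At ZT4 on that diet the levels were 0.361, 0.416 and 0.533 CPM in WT and 2.52, 3.11 and 2.22 CPM in GRLKO, at ZT8 0.787, 0.219 and 0.215 CPM in WT and 3.05, 4.48 and 3.24 CPM in GRLKO and at ZT20 0.305, 0.235 and 0.173 CPM in WT and 2.47, 1.10 and 3.49 CPM in GRLKO. Groups did not overlap at these times, with log2 fold changes of 2.58 ± 0.30, 3.13 ± 0.49 and 3.29 ± 0.54 (edgeR adjusted p = 0.0213, 0.0229 and 0.0373). These 3 calls were lost without some single livers: at ZT4 the call was lost without WT replicate 1 or 2 or any 1 GRLKO liver (edgeR adjusted p = 0.0655 to 0.120), at ZT8 without WT replicate 3 or any 1 GRLKO liver (0.0695 to 0.0947), and at ZT20 without any 1 liver but GRLKO replicate 2 (0.0646 to 0.155). At ZT12 Cidec stood at 1.89, 0.910 and 1.52 CPM in WT and 1.84, 2.41 and 3.24 CPM in GRLKO on caloric restriction. Those groups overlapped (0.79 ± 0.35, edgeR adjusted p = 0.18). At ZT0 it stood at 0.382, 0.751 and 0.230 CPM in WT and 2.52, 5.13 and 3.26 CPM in GRLKO, without overlap and short of a call (2.98 ± 0.46, edgeR adjusted p = 0.0552; DESeq2 called it, adjusted p = 6.96e-06, as did edgeR with all livers of the diet in 1 fit, 0.000345, and without the filter on low counts, 0.0451).

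On the control diet Cidec stood at 1.61, 1.21, 0.489 and 3.33 CPM in WT and 11.8, 8.95, 14.5 and 12.9 CPM in GRLKO at ZT8 and at 0.647, 1.49, 2.01 and 0.733 CPM in WT and 16.3, 9.11 and 7.51 CPM in GRLKO at ZT20. GRLKO was higher without overlap at both times, by 2.82 ± 0.40 and 3.17 ± 0.43 on the log2 scale (edgeR adjusted p = 0.0111 and 0.038). The ZT8 call was lost without WT replicate 1 (edgeR adjusted p = 0.0515) and with all livers of the diet in 1 fit (0.167), and the ZT20 call without any 1 liver but WT replicate 3 (0.062 to 0.107). At ZT4 Cidec stood at 0.899, 0.694 and 0.405 CPM in WT and 23.4, 13.9 and 2.85 CPM in GRLKO. No liver overlapped, yet edgeR called the difference only without GRLKO replicate 3 (log2 fold change 4.80, adjusted p = 0.0155; 4.33 ± 0.80 and 0.132 with it), while DESeq2 called it with all livers (adjusted p = 5.13e-08). GRLKO replicate 3 at ZT12 reached 50.6 CPM, where the other 3 GRLKO livers lay at 2.65 to 5.12 CPM. Of the 7 adipocyte markers 2 were tested, and Cfd alone was called higher in GRLKO on the control diet, at ZT0, ZT4, ZT8 and ZT12 and over the day. The summed adipocyte markers were 4.62, 4.61, 3.99 and 5.53 CPM in WT and 24.7, 13.6, 50.2 and 26.8 CPM in GRLKO at ZT8, and 5.42, 4.87, 5.33 and 5.46 and 10.6, 54.1 and 10.6 CPM at ZT20, with Fabp4 the most abundant in WT and mostly Cfd in GRLKO. At ZT12 they were 3.71, 3.84, 2.91 and 3.87 CPM in WT and 5.89, 6.66, 38.8 and 10.9 CPM in GRLKO, replicate 3 being the highest. Plin1 was at 0 in all 90 libraries, Lep in 89, Retn in 63 and Adipoq in 62, with Adipoq never above 1.38 CPM. On caloric restriction at ZT16, where Cidec rose, the 1 adipocyte marker tested was not called by edgeR and the sums were 7.28, 7.66 and 7.27 CPM in WT and 5.07, 8.03 and 7.04 CPM in GRLKO.

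Cideb, the family member that serves lipoprotein assembly in hepatocytes, had small differences between genotypes. Its lowest, median and highest levels were 158, 206 and 235 CPM in WT and 168, 202 and 216 CPM in GRLKO on caloric restriction, and 161, 209 and 227 CPM in WT and 184, 200.1 and 263 CPM in GRLKO on the control diet. Over the day the groups shared most of their range. At ZT0 they did not overlap, GRLKO being lower on caloric restriction (-0.13 ± 0.06 on the log2 scale, edgeR adjusted p = 0.398) and higher on the control diet (0.27 ± 0.09, edgeR adjusted p = 0.25). Cideb was called at no time point and in neither day average (-0.04 ± 0.04 and 0.06 ± 0.03 on the log2 scale, edgeR adjusted p = 0.423 and 0.284; DESeq2 called none either).

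G0s2, which binds and inhibits ATGL, rose in GRLKO at ZT8 and ZT12 on caloric restriction and varied strongly through the day. At ZT8 on caloric restriction it stood at 6.81, 7.82 and 7.83 CPM in WT and 25.4, 23.0 and 23.9 CPM in GRLKO. Both groups were tight and far apart (1.69 ± 0.10 on the log2 scale, edgeR adjusted p = 0.000684), and the call held without any 1 liver. At ZT12 it stood at 9.25, 19.2 and 26.9 CPM in WT and 48.8, 71.1 and 74.5 CPM in GRLKO. All GRLKO livers were higher (1.81 ± 0.35, edgeR adjusted p = 0.0157), a call lost without WT replicate 2 or GRLKO replicate 2 or 3 (0.0505 to 0.0571). At ZT16 the levels were 76.5, 139.7 and 90.3 CPM in WT and 218, 213 and 151 CPM in GRLKO. The groups did not overlap, and the difference was called without WT replicate 2 (1.23, edgeR adjusted p = 0.0255) and by DESeq2 (adjusted p = 0.000473), but not by edgeR with all livers (0.94 ± 0.24, adjusted p = 0.076). At ZT20 the order was reversed, at 44.4, 25.5 and 25.0 CPM in WT and 23.7, 10.2 and 17.4 CPM in GRLKO, with no overlap and no call (-0.87 ± 0.34, edgeR adjusted p = 0.225). Its day average rose by 0.80 ± 0.15 (edgeR adjusted p = 8.64e-05), called whichever replicate number was left out.

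On the control diet the day average of G0s2 rose by 0.71 ± 0.23 (edgeR adjusted p = 0.0291), a call lost without the livers numbered 2 or those numbered 3 (0.361 and 0.134). At ZT12 on that diet G0s2 stood at 83.3, 9.99, 16.2 and 18.5 CPM in WT and 133, 84.9, 101 and 44.7 CPM in GRLKO. WT replicate 1 lay among the GRLKO livers while the other 3 WT livers were below them all. The difference was not called with that liver (1.52 ± 0.63, edgeR adjusted p = 0.349) and was called without it (2.61, edgeR adjusted p = 0.0163). At ZT8 it stood at 36.3, 14.0, 15.7 and 29.8 CPM in WT and 45.6, 53.6, 56.6 and 43.1 CPM in GRLKO. These did not overlap but were called by DESeq2 alone (adjusted p = 0.00523; edgeR 1.05 ± 0.27, adjusted p = 0.131). At ZT16 GRLKO was again higher without overlap and was not called by edgeR (1.17 ± 0.33, adjusted p = 0.129), and at ZT20 the groups overlapped with the lower mean in GRLKO (-0.54 ± 0.50, edgeR adjusted p = 0.737). Hilpda, the other inhibitor of ATGL, was low, at 0.303 to 3.07 CPM over all 90 livers, and was called at no time point on either diet, its day averages being -0.03 ± 0.09 and -0.13 ± 0.10 (edgeR adjusted p = 0.843 and 0.501).

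Pnpla2, the lipase itself, was called between genotypes by edgeR at ZT12 on caloric restriction and at no other time. At ZT12 on caloric restriction it stood at 94.4, 123 and 102 CPM in WT and 74.4, 82.9 and 77.0 CPM in GRLKO. WT livers were all higher (-0.45 ± 0.11 on the log2 scale, edgeR adjusted p = 0.0391), but the call held only without WT replicate 1 and was lost without any other of the 6 livers (edgeR adjusted p = 0.0702 to 0.120) and without the 2 livers with muscle or pancreas markers (-0.44 on the log2 scale, edgeR adjusted p = 0.183). At ZT12 on the control diet it stood at 106, 79.4, 95.0 and 131 CPM in WT and 101, 95.3, 113 and 93.0 CPM in GRLKO. The groups overlapped there. At ZT4 and ZT8 on that diet GRLKO was higher without overlap and without a call (0.34 ± 0.10 and 0.30 ± 0.10, edgeR adjusted p = 0.339 and 0.23). Its day averages were -0.11 ± 0.07 on caloric restriction and 0.11 ± 0.05 on the control diet, neither called (edgeR adjusted p = 0.225 and 0.156). Abhd5, the activator of the lipase, had a lowest, median and highest level of 23.8, 29.4 and 40.8 CPM in WT and 22.0, 25.1 and 36.0 CPM in GRLKO on caloric restriction, and 22.5, 32.3 and 52.1 CPM and 24.1, 28.0 and 36.9 CPM on the control diet. Over the day GRLKO lay slightly lower with wide overlap, while within time points it was lower without overlap at ZT12, ZT16 and ZT20 on caloric restriction and at ZT16 on the control diet. Its day average was -0.22 ± 0.04 on caloric restriction (edgeR adjusted p = 3.14e-05) and -0.19 ± 0.05 on the control diet (edgeR adjusted p = 0.00591), the latter lost without the livers numbered 1 (0.0695), and edgeR called it at no single time point when each was fitted alone. With all livers of the diet in 1 fit it was called at ZT12 on caloric restriction (log2 fold change -0.35, edgeR adjusted p = 0.0048).

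Fitm1, known chiefly from skeletal muscle, where it sorts triglyceride into droplets, had GRLKO livers at 18.9, 35.8 and 49.4 CPM (lowest, median, highest) on caloric restriction and WT livers at 3.23, 7.08 and 15.5 CPM. The 18 GRLKO livers all lay above the 18 WT livers. Livers on the control diet stood at 30.9, 69.1 and 120.0 CPM in GRLKO and 12.9, 29.1 and 51.7 CPM in WT. Here the ranges overlapped. The day average rose by 2.19 ± 0.11 on caloric restriction (edgeR adjusted p = 2.82e-14) and by 1.24 ± 0.13 on the control diet (edgeR adjusted p = 1.45e-08), whichever replicate number was left out. The rise was greater on caloric restriction by 0.95 ± 0.19 (edgeR adjusted p = 0.000976), an interaction lost without the livers numbered 2 (0.108). At ZT12 the same difference was 1.40 ± 0.51 and was not called (edgeR adjusted p = 0.234).

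At ZT12 on caloric restriction Fitm1 stood at 5.54, 5.32 and 5.24 CPM in WT and 20.2, 44.0 and 32.2 CPM in GRLKO. The WT livers were nearly equal and far below (2.58 ± 0.28 on the log2 scale, edgeR adjusted p = 0.0018). GRLKO replicate 1, whose muscle markers summed to 232.6 CPM with Myh1 the most abundant, had the lowest Fitm1 of its group, and without it and WT replicate 3 the log2 fold change was 2.81 (edgeR adjusted p = 0.00701). At ZT8 and ZT16 on that diet Fitm1 rose by 2.76 ± 0.27 and 2.78 ± 0.23 (edgeR adjusted p = 0.00483 and 0.00134), and these calls and that of ZT12 held without any 1 liver. Rises of 1.63 ± 0.12 at ZT0, 1.88 ± 0.20 at ZT4 and 1.54 ± 0.26 at ZT20 (edgeR adjusted p = 0.01, 0.0174 and 0.0426) were lost without WT replicate 3 at ZT0 (0.0659), without GRLKO replicate 1 or 2 at ZT4 (0.0713 and 0.1), and without any 1 liver but GRLKO replicate 2 at ZT20 (0.0651 to 0.159). Fitm1 was called on the control diet at ZT0, ZT4 and ZT8 (1.44 ± 0.21, 1.39 ± 0.16 and 1.03 ± 0.16, edgeR adjusted p = 0.0452, 0.0322 and 0.0161). The ZT0 call was lost without any 1 of the 6 livers (0.0729 to 0.183), the ZT4 call likewise (0.0502 to 0.128), and the ZT8 call without replicate 1 or 3 of either genotype (0.0523 to 0.0715). With all livers of the diet in 1 fit, the calls at ZT4 and ZT8 were lost (0.0771 and 0.183). At ZT12 on that diet Fitm1 stood at 51.7, 27.6, 26.3 and 21.9 CPM in WT and 59.1, 58.7, 120.0 and 53.8 CPM in GRLKO. The groups did not overlap, and the difference was not called (1.20 ± 0.33, edgeR adjusted p = 0.127). It was called without WT replicate 1 (1.53, edgeR adjusted p = 0.0479), with all livers of the diet in 1 fit (0.0165) and by DESeq2 (adjusted p = 0.00627). At ZT16 it stood at 41.2, 31.9, 12.9 and 21.6 CPM in WT and 73.6, 68.6 and 54.8 CPM in GRLKO. Again no liver overlapped and the difference was not called (1.29 ± 0.33, edgeR adjusted p = 0.0981), while it was with all livers of the diet in 1 fit (0.0192) and by DESeq2 (adjusted p = 0.0023). At ZT20 the groups overlapped, and DESeq2 alone called the difference (adjusted p = 0.0473; edgeR 1.11 ± 0.33, adjusted p = 0.268).

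Markers of other liver cells moved with genotype in some of these comparisons. At ZT12 on caloric restriction 4 of 6 Kupffer cell markers rose in GRLKO, with summed levels of 40.0, 66.1 and 47.0 CPM in WT and 114, 89.8 and 116 CPM in GRLKO and Clec4f the most abundant. Of 7 hepatocyte markers 5 fell there, with sums of 164000.0, 165600.0 and 170600.0 CPM in WT and 122400.0, 129800.0 and 113700.0 CPM in GRLKO and Alb the most abundant, and 4 fell on the control diet at ZT12 (81430.0, 95950.0, 78500.0 and 89790.0 CPM in WT, 67700.0, 63410.0, 71950.0 and 82890.0 CPM in GRLKO). In the day averages 5 of them fell on caloric restriction (Tat, Hnf4a, Cps1, Alb and Apoa1) and 4 on the control diet (Hnf4a, Cps1, Alb and Apoa1). Over the day on caloric restriction all 5 endothelial markers rose in GRLKO, for which the ZT12 sums were 150.4, 141 and 166 CPM in WT and 195, 182 and 206 CPM in GRLKO with Clec4g the most abundant. The erythrocyte gene Alas2 rose in both day averages, Pdgfrb among the 6 stellate cell markers and Cd79a among the 3 lymphocyte markers tested rose in that on caloric restriction, and Sox9 fell at ZT12 on caloric restriction. No muscle or neutrophil marker was called in any genotype comparison by edgeR, nor any of the exocrine pancreas; most of these were too low to be tested. The part of these cells in the results was not tested.

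Daily rhythms were tested in each genotype and diet with JTK_CYCLE at a period of 24 h, on variance-stabilised counts. A p was taken from an exact null distribution at each of 6 phases. The smallest was multiplied by 6, which makes it an upper bound. Rhythms were called under a Benjamini-Hochberg adjusted p of 0.05, written exact JTK_CYCLE adjusted p. In WT liver 6 of 10 members were called on caloric restriction (21.7% of the genes tested) and 6 of 10 on the control diet (27.2%). In GRLKO liver 4 of 10 were called on caloric restriction (19.9%) and 3 of 10 on the control diet (22.8%). Plin5 and Pnpla2 were called in all 4, and a call in one genotype and not the other is no difference in itself. Cell markers were called rhythmic by JTK_CYCLE too. On the control diet they were 6 of 6 Kupffer, 5 of 5 endothelial, 5 of 6 stellate and 4 of 7 hepatocyte markers in WT, and 5, 4, 4 and 1 of these in GRLKO. The same lists had 0, 1, 1 and 3 in WT and 0, 1, 1 and 1 in GRLKO on caloric restriction. Of the other lists, Cd79a and Ms4a1 were called in each genotype on caloric restriction, and S100a8, S100a9 and Sox9 in GRLKO. On the control diet Sox9 and Krt19 were called in each genotype, S100a8, S100a9, Cd3e and Fabp4 in WT, and Cd79a and Ms4a1 in GRLKO. Their part in the rhythms of the members was not tested.

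Plin5 in WT went from a mean of 26.4 CPM at ZT4 to 119.5 CPM at ZT12 on caloric restriction and from 19.5 CPM at ZT8 to 65.5 CPM at ZT20 on the control diet. In GRLKO it went from 12.1 CPM at ZT8 to 85.2 CPM at ZT16 and from 20.7 CPM at ZT8 to 71.1 CPM at ZT0. Its highest mean thus came at a later time in GRLKO than in WT on either diet. The test of the rhythm difference between genotypes (limma, sine and cosine terms) called Plin5 on the control diet, adjusted p = 0.0109, the only 1 of 10 members where 0.366% of the genes tested were called. On caloric restriction it called 0 of 10 members where 0.652% of the genes were called, with 4 members at an unadjusted p under 0.05, Plin5 at an adjusted p of 0.0998, and 0 members by edgeR. With the replicate number as a block, Plin5 and G0s2 were called there (limma adjusted p = 0.0428 and 0.0154). The control diet call was lost without the livers numbered 1, 2 or 3 (limma adjusted p = 0.0948 to 0.312), and without those numbered 3 Cidec was called (0.0204). Plin5 rhythms in WT had an exact JTK_CYCLE adjusted p of 0.0029 on caloric restriction and 0.00302 on the control diet, and in GRLKO of 0.0137 and 0.00534.

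Pnpla2 had its highest group mean at ZT8 or ZT12 in each genotype and diet. In WT it went from 35.5 CPM at ZT20 to 106 CPM at ZT12 on caloric restriction and from 37.5 CPM at ZT0 to 103 CPM at ZT12 on the control diet. In GRLKO it went from 33.7 CPM at ZT16 to 98.4 CPM at ZT8 and from 39.5 CPM at ZT20 to 101 CPM at ZT12. The exact JTK_CYCLE adjusted p was 0.00217 and 8.26e-05 in WT and 0.00177 and 0.00108 in GRLKO, caloric restriction before control diet. Its inhibitor G0s2 had its lowest WT mean at ZT8 on each diet: it went from 7.48 CPM at ZT8 to 102 CPM at ZT16 on caloric restriction and from 24.0 CPM at ZT8 to 97.1 CPM at ZT20 on the control diet. The WT means at ZT4 on caloric restriction (7.56 CPM) and ZT12 on the control diet (32.0 CPM) did not differ from those beyond their spread. In GRLKO on caloric restriction G0s2 went from 13.4 CPM at ZT4 to 194 CPM at ZT16. These 3 rhythms of G0s2 were called (exact JTK_CYCLE adjusted p = 0.00545, 0.0245 and 0.0373), and that in GRLKO on the control diet was not (0.259; edgeR called it, adjusted p = 0.0181).

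Abhd5 was called in WT on both diets, highest at 39.4 CPM at ZT16 on caloric restriction and 40.8 CPM at ZT16 on the control diet (exact JTK_CYCLE adjusted p = 0.0435 and 0.00732). Plin2 was called in WT on both diets, highest at 322 CPM at ZT16 on caloric restriction and 331 CPM at ZT20 on the control diet (exact JTK_CYCLE adjusted p = 0.0345 and 0.00508). Neither was called in GRLKO by JTK_CYCLE, while edgeR called Abhd5 there on both diets (adjusted p = 0.0201 on caloric restriction and 0.0155 on the control diet). On caloric restriction edgeR also called Cideb, Cidec and Hilpda in WT (adjusted p = 0.0133, 0.0139 and 0.0104) and Cidec in GRLKO (0.0485). Fitm1 was called in WT on caloric restriction, from 5.13 CPM at ZT16 to 14.4 CPM at ZT0 (exact JTK_CYCLE adjusted p = 0.0029). Hilpda was called in WT on the control diet and in GRLKO on both diets (exact JTK_CYCLE adjusted p = 0.00188, 0.00177 and 0.0218), always low, with a highest group mean of 2.54 CPM.

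With 3 or 4 livers per time point, most rhythm calls were lost without the livers of 1 replicate number or another, where fewer livers and other livers cannot be told apart. Over all genes, leaving out 1 number at a time lowered the calls from 4041 to between 392 and 745 in WT and from 3764 to between 305 and 400 in GRLKO on caloric restriction, and from 5141 to between 2373 and 3715 and from 4261 to between 1193 and 3601 on the control diet. On caloric restriction in WT, those of Plin2, G0s2 and Abhd5 were lost without the livers of any 1 number (exact JTK_CYCLE adjusted p = 0.0534 to 0.555), that of Plin5 without number 2 or 3 (0.0720 to 0.179), and those of Pnpla2 and Fitm1 without number 1 or 3 (0.0859 to 0.133). In GRLKO on that diet, those of Plin5, G0s2 and Pnpla2 were lost without any 1 number (0.0524 to 0.443) and that of Hilpda without 1 or 2 (0.0727 to 0.147). On the control diet in WT, that of Plin2 was lost without number 4 (0.0592), Plin5 without 1 (0.0586), G0s2 without 2 or 3 (0.218 to 0.418) and Abhd5 without 1, 2 or 3 (0.0647 to 0.0771), while those of Pnpla2 and Hilpda held. In GRLKO, Plin5 was lost without 2 or 3 (0.0718 to 0.137), Pnpla2 without 1 (0.0534) and Hilpda without any 1 number (0.0605 to 0.213). Without the livers that stood apart, Plin2 and Abhd5 in WT (0.0790 and 0.0999) and Plin5 and G0s2 in GRLKO (0.0518 and 0.109) were lost on caloric restriction, and Hilpda in GRLKO on the control diet (0.0570).

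Another 27 lipid droplet genes were examined beside the members: the coat genes Plin1, Plin3 and Cidea, genes of droplet formation, droplet enzymes and other lipases. In the diet experiment 11 of 25 tested were called, 5 higher and 6 lower, where 47.1% of all genes tested were. Acsl3, which activates fatty acids at nascent droplets, rose by 1.60 ± 0.12 on the log2 scale and the carboxylesterase Ces1d by 0.70 ± 0.11. Hormone-sensitive lipase, Lipe, had -1.12 ± 0.11, Ces1f -1.31 ± 0.18, Ces3a -3.04 ± 0.47 and Ces3b -2.21 ± 0.38 (edgeR adjusted p of these 6 at most 0.00332). That of Acsl3 was not called with the WT ZT12 livers of the time series (edgeR adjusted p = 0.15), where diet and library set cannot be told apart. With corticosterone 2 of 25 were called (8.11% of all genes tested), both lower: Lipe (-1.12 ± 0.21, edgeR adjusted p = 0.0219) and Acsl3 (-0.62 ± 0.14, edgeR adjusted p = 0.0375). The call of Lipe was lost without replicate 1 or 2 of the controls or replicate 1 or 3 with corticosterone (edgeR adjusted p = 0.0546 to 0.0896), and that of Acsl3 without any 1 liver but control replicate 3 (0.0681 to 0.116). The carboxylesterases lie in families of near-identical copies, and their counts may be shared between copies.

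By genotype, Fitm2, the relative of Fitm1 that is expressed in many tissues, was the only 1 of 25 called by edgeR at ZT0, ZT4, ZT8 and ZT20 on caloric restriction when each time point was fitted alone, by 0.62 ± 0.08, 0.65 ± 0.09, 0.65 ± 0.10 and 0.69 ± 0.11 on the log2 scale. DESeq2 called 5, 3, 3 and 4 of these genes there, and edgeR with all livers of the diet in 1 fit 2, 1, 3 and 4. The Fitm2 calls were lost without any 1 liver at ZT0 (edgeR adjusted p = 0.051 to 0.113), any but WT replicate 3 at ZT4 (0.0883 to 0.158), WT replicate 1 or any 1 GRLKO liver at ZT8 (0.0584 to 0.1) and any but GRLKO replicate 2 at ZT20 (0.0531 to 0.148). At ZT12 on that diet 8 of 25 were called (15.3% of all genes tested), 7 higher and 1 lower, among them Acsl3 (0.86 ± 0.08), the lysosomal lipase gene Lipa (0.85 ± 0.14) and Ces3b (-1.41 ± 0.23). Without the 2 livers with muscle or pancreas markers 1 of the 8 was called, Acsl3, and the other 7 were not (edgeR adjusted p = 0.0613 to 0.097). At ZT16 there were 7 of 25 (4.54% of all), 4 higher and 3 lower, led by Ces1f (0.76 ± 0.08) and Ces1d (0.95 ± 0.11), the 2 whose calls held without any 1 liver. On the control diet 2 of 24 were called at ZT8, both higher (Fitm2 0.50 ± 0.06 and Mgll 0.40 ± 0.06), and 1 of 25 at ZT16 (Ces1f 0.38 ± 0.07). The call of Mgll was lost without WT replicate 2 (edgeR adjusted p = 0.0508) and with all livers of the diet in 1 fit (0.414), and that of Ces1f without any 1 liver (0.0697 to 0.121). There 0 were called by edgeR at ZT0, ZT4, ZT12 and ZT20, with 10, 5, 3 and 3 at an unadjusted p under 0.05 4, 2, 1 and 1 called by DESeq2 and 5, 1, 2 and 1 called with all livers of the diet in 1 fit. In the day averages 11 of 25 were called on caloric restriction (9 higher, 2 lower), where 32.9% of all genes tested were, and 13 of 26 on the control diet (10 higher, 3 lower), where 18.6% were, including Fitm2 (0.57 ± 0.06 and 0.43 ± 0.05) and on the control diet Pnpla3 (1.92 ± 0.35). The interaction called 0 of 25 at ZT12 by edgeR, with 4 at an unadjusted p under 0.05 and 3 by DESeq2, and 1 of 26 over the day, Hsd17b13 (0.32 ± 0.08), a call lost without the livers numbered 1, 2 or 3 (edgeR adjusted p = 0.069 to 0.317) and without those that stood apart (0.0553). Rhythms were called by JTK_CYCLE for 9 of 26 in WT and 13 of 26 in GRLKO on caloric restriction (21.7% and 19.9% of all genes tested), and for 13 of 26 and 12 of 26 on the control diet (27.2% and 22.8%). Without the livers that stood apart the count was 7 in GRLKO on caloric restriction. The rhythm difference called 1 of 25 on caloric restriction, Lipa (limma adjusted p = 0.0394; 0.323 to 0.521 without any 1 replicate number and 0.198 without the livers that stood apart), and 0 of 26 on the control diet by limma and by edgeR, with 4 at an unadjusted p under 0.05.

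Group mean levels of log2 CPM over the 24 groups of the time series, centred within each diet, were compared with those of 11150 genes as a description of likeness. The points share diets, livers and scaling. Plin5 was most like Skil, Fgf1 and Ube2g2 (Pearson r 0.913, 0.912 and 0.904), Fitm1 most like Atp9a, Mup-ps16 and Sema5b (0.950, 0.949 and 0.945), and Cidec most like Cyp2b10, Ermp1 and Kbtbd11 (0.917, 0.915 and 0.913). Pnpla2 was most like Gsk3a (0.967), Plin2 like Prlr (0.896), G0s2 like Det1 (0.917), Abhd5 like Rab11fip3 (0.896), Hilpda like Dnmt3b (0.932) and Plin4 like Gabbr2 (0.676). Among the members, Plin5 and Abhd5 had r 0.772, Plin2 and Fitm1 0.756, Cidec and Fitm1 0.756, and Pnpla2 and Hilpda -0.872.

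In the GRCm38 annotation (mm10), Plin5 (ENSMUSG00000011305, chr17:56111601-56117596, minus strand) lies 1797 bases from Plin4 (ENSMUSG00000002831, chr17:56100591-56109803, minus strand). Fitm1 (ENSMUSG00000022215, chr14:55575617-55576954, plus strand) and Cideb (ENSMUSG00000022219, chr14:55754050-55758458, minus strand) are 177095 bases apart. Plin2 (ENSMUSG00000028494) lies at chr4:86648386-86670060 and Cidec (ENSMUSG00000030278) at chr6:113424634-113435760, both on the minus strand. G0s2 (ENSMUSG00000009633) lies at chr1:193272161-193273217 on the minus strand, inside an intron of Lamb3 with no exonic overlap. Pnpla2 (ENSMUSG00000025509, chr7:141455198-141460743), Abhd5 (ENSMUSG00000032540, chr9:122351608-122381524) and Hilpda (ENSMUSG00000043421, chr6:29272488-29275446) are on the plus strand. Exons overlap with a gene on the other strand by 1136 bases for Cideb (Nop9), 950 for Abhd5 (A730085K08Rik), 109 for Fitm1 (Gm15932) and 17 for Plin4 (Hdgfl2). The labels name a library kit that does not mark strand, the methods of the study name a stranded kit beside it, and use of strand in the counting is not given in the sources used here, so reads from these stretches may not have been told apart between the partners.

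Promoters, 250 bases before to 50 after a start, were read from the RefSeq table of GRCm38.p6, which held 13 for the members among 32851. Motifs were searched on both strands, and a match is a description and no evidence of binding. The glucocorticoid response element, AGAACA and TGTTCT with 3 bases between them, was in 0 member promoters and in 0.00913% of all promoters, and its half-site AGAACA, contained in that motif, was in the Cideb promoter, 2 times, and in 19.0% of all. The FoxO motif TGTTTAC (3.65% of all promoters) and the direct repeat bound by PPAR receptors, 2 copies of AGGTCA with 1 base between them (0.0396%), were in none of the members'. The E-box CACGTG, the motif bound by clock factors, was in 7.15% of all promoters and in 1 of the 13 member promoters, that of Plin2. Sequence outside these promoters was not searched, and a link of the motif to the rhythms was not tested. The Plin2 promoter (chr4:86670010-86670309, minus strand) is shown 5′ to 3′ with the E-box in capitals.
Plin2 promoter: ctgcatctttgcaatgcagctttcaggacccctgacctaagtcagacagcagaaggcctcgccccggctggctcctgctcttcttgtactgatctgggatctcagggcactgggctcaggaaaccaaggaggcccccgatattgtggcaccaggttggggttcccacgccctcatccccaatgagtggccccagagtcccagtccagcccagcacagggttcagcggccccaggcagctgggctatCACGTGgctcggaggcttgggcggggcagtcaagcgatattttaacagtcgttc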

How the data were processed

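The deposited files hold estimated counts per gene, which the authors made with Salmon on build mm10; their processing notes also name FastQC, MultiQC and DESeq2. The counts were rounded and tested with R 4.3.3 and edgeR 4.0.16 (quasi-likelihood, TMM scaling, filterByExpr with a minimum count of 10, Benjamini-Hochberg over all genes tested). Rhythms were tested with an own JTK_CYCLE with an exact null on variance-stabilised counts from DESeq2 1.42.0, and rhythm differences with limma 3.58.1. The p-values measure the spread between livers. The members, the 27 other droplet genes and the 11 lists of cell markers were chosen by name with earlier results of these data known. Genes named outside the members are those of the droplet list that were called, those most like a member, and markers. Within groups, no library was a copy of another: among the 102 pairs of the same group the lowest chi-squared per degree of freedom was 10.39 and the median 22.54. Gene coordinates came from GENCODE vM21 and promoters from RefSeq, both GRCm38.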

Additional observations from a re-analysis of the deposited data

Results flagged for a closer look

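In groups of 4 livers, a value was picked out where it stood far from the other 3. This rule was applied to 60 sets of 4 livers, 10 genes in each of 6 groups, and picked a value in 8 of them. By chance it picks one in about 1 in 20 independent sets. The 8 cannot be compared with that rate, as several came from 1 library. In the Plin4 sets picked, all other livers were at 0. In GRLKO replicate 3 at ZT12 on the control diet, Plin2 was at 506.6 CPM (241.1 to 265.8 in the other 3 livers), Cideb at 262.9 CPM (195.8 to 198.5), Cidec at 50.6 CPM (2.647 to 5.12) and Fitm1 at 120.0 CPM (53.76 to 59.1). G0s2 was at 83.32 CPM in WT replicate 1 at ZT12 on the control diet (9.987 to 18.54 in the others). Cideb was at 212.9 CPM in GRLKO replicate 3 at ZT8 on the control diet (196.9 to 198.5). Plin4 was at 5.394 CPM in WT replicate 4 at ZT8 and at 8.095 CPM in WT replicate 3 at ZT16 on the control diet, with the other WT livers at 0.

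A difference between the diets in the effect of genotype was called for Plin5 at ZT12 (-1.39 on the log2 scale) and over the day (-0.78), and for Fitm1 over the day (0.95). The call at ZT12 was lost for 10 of the 14 livers when each was left out in turn (edgeR adjusted p = 0.0502 to 0.0933), without the libraries that stood apart (0.118) and with the replicate number as a block (0.0681). That of Fitm1 was lost without the livers numbered 2 (edgeR adjusted p = 0.108). A difference between genotypes in the rhythm of Plin5 was called on the control diet (limma adjusted p = 0.0109), and was lost without the livers numbered 1, 2 or 3 (0.0948 to 0.312).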

How the results depend on the processing

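Each result was recomputed without each replicate in turn. All but the rhythm results were recomputed with DESeq2 and without the filter on low counts, and all but the rhythms in each genotype with the replicate number as a block (replicate block). Where it applied, all livers of a diet were put in 1 fit, the WT ZT12 livers of the time series or edgeR for rhythms were used, or the libraries that stood apart were left out, the last chosen after seeing the data. Of 883 values of single genes, 663 stayed on the same side of the threshold, called or not, 174 lost a call, 42 gained one and 4 changed sign. The sign changed for Plin4 in the diet experiment with the replicate block (-1.65), with the WT ZT12 livers of the time series (-2.53) and without caloric restriction replicate 1 (-9.49, a fitted value and no measured fold, as both remaining restricted livers were at 0), and for Abhd5 with the time series livers (0.20). The cause was not tested. Correlations between livers of the same replicate number ran from -0.12 to 0.11, and in no comparison did every liver correlate best with its own number.

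The number of members called changed as follows, and no other count of members did under these settings. With DESeq2 they were 5 with corticosterone, 2, 4, 4 and 3 at ZT0, ZT4, ZT16 and ZT20 on caloric restriction, and 3, 2, 4, 2, 3 and 2 at ZT0, ZT4, ZT8, ZT12, ZT16 and ZT20 on the control diet. Without the filter they were 2 at ZT0 on caloric restriction. With the replicate block they were 0, 0, 4, 4, 2 and 1 at the 6 times on caloric restriction, 0 at ZT0, ZT4, ZT8, ZT16 and ZT20 on the control diet, 0 in the interaction at ZT12 and 2 in the rhythm difference on caloric restriction, Plin5 (limma adjusted p = 0.0428) and G0s2 (0.0154). With 1 fit per diet they were 2, 6, 2 and 3 at ZT0, ZT12, ZT16 and ZT20 on caloric restriction, and 2, 0, 0 and 3 at ZT0, ZT4, ZT8 and ZT12 on the control diet. The time series livers gave 2 in the diet comparison. Without the libraries that stood apart they were 4 at ZT12 and 7 over the day on caloric restriction, 0 in the interaction at ZT12, 4 rhythms in WT and 2 in GRLKO on caloric restriction and 2 in GRLKO on the control diet. By edgeR, 9 rhythms were called in WT and 6 in GRLKO on caloric restriction and 5 in GRLKO on the control diet. Over all genes edgeR also called more rhythms than JTK_CYCLE. It called 6762 against 4041 in WT and 6312 against 3764 in GRLKO on caloric restriction. In GRLKO on the control diet it called 6361 against 4261. Of the other droplet genes, the replicate block called 0 with corticosterone, where Lipe and Acsl3 had an edgeR adjusted p of 0.0677 and 0.0749, 0 at ZT0, ZT4, ZT8 and ZT20, 6 at ZT12 and 3 at ZT16 on caloric restriction, and 0 at the 6 times on the control diet and in the rhythm difference on caloric restriction.

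The log2 fold change of Plin4 in the diet experiment ran from -9.49 to 1.45 without 1 replicate in turn. Without 1 replicate in turn, the members called ran from 6 to 8 in the diet experiment and 2 to 4 with corticosterone. On caloric restriction they ran from 0 to 1 at ZT0, 0 to 3 at ZT4, 2 to 5 at ZT8, 2 to 6 at ZT12, 2 to 3 at ZT16, 0 to 2 at ZT20 and 6 to 7 over the day. For the control diet they were 0 to 0 at ZT0, 0 to 1 at ZT4, 0 to 2 at ZT8, 1 to 3 at ZT12, 0 to 1 at ZT16, 0 to 1 at ZT20 and 4 to 5 over the day. They ran from 0 to 1 in the interaction at ZT12 and 1 to 2 over the day. Rhythms ran from 0 to 2 in WT and 0 to 1 in GRLKO on caloric restriction, and 4 to 5 and 1 to 2 on the control diet, and the rhythm difference from 0 to 0 and 0 to 1.

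Genes called changed by over 1.5 times as follows. Corticosterone had 935, and 534 with the replicate block. On caloric restriction, in the order as reported, DESeq2, replicate block and 1 fit, ZT0 had 61, 434, 9 and 169, ZT4 83, 440, 13 and 358, ZT8 308, 697, 151 and 724, ZT16 541, 917, 287 and 1025, and ZT20 178, 686, 76 and 1127. At ZT12 there were 1795, 889 with the replicate block, 2805 in 1 fit and 538 without the 2 libraries that stood apart. On the control diet, in the same order, ZT0 had 63, 407, 9 and 630, ZT4 23, 195, 1 and 48, ZT8 166, 369, 36 and 36, ZT12 238, 569, 101 and 537, ZT16 232, 634, 37 and 469, and ZT20 50, 297, 3 and 387. The interaction at ZT12 had 123, 473 with DESeq2, 5 with the replicate block and 57 without the libraries that stood apart. Rhythms on caloric restriction numbered 4041 in WT and 6762 by edgeR, and 3764 in GRLKO, 6312 by edgeR and 2420 without the libraries that stood apart. The rhythm difference had 85 on caloric restriction, 130 by edgeR, 159 with the replicate block and 17 without those libraries, and 47 on the control diet, 23 with the replicate block. Without 1 replicate in turn, genes called ran from 206 to 1008 with corticosterone. On caloric restriction they ran from 1 to 103 at ZT0, 13 to 127 at ZT4, 56 to 315 at ZT8, 899 to 1329 at ZT12, 234 to 346 at ZT16, 16 to 194 at ZT20 and 2807 to 3168 over the day, where 4297 were reported. For the control diet they were 3 to 81, 1 to 13, 56 to 160, 137 to 199, 84 to 183 and 12 to 48 at the same times and 1487 to 2206 over the day, where 2389 were reported. The interaction ran from 49 to 148 at ZT12 and from 77 to 374 over the day, where 403 were reported. Rhythms ran from 392 to 745 in WT and 305 to 400 in GRLKO on caloric restriction and, where 5141 and 4261 were reported, from 2373 to 3715 and 1193 to 3601 on the control diet. The rhythm difference ran from 0 to 2 on caloric restriction and 3 to 28 on the control diet.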
